A study of Mus musculus with 15 samples.

Results

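The erythroid and megakaryocytic transcription factors are the 8 genes Gata1, Gata2, Klf1, Zfpm1, Tal1, Lmo2, Gfi1b and Nfe2, out of 19937 genes measured on the arrays. They were chosen by name as regulators of red cell and platelet formation, with earlier results of these data known. Counts of them, and of the gene lists below, set beside all genes are therefore descriptions and no independent test. Each factor was represented by 1 probe set with a single gene symbol, so that no choice between probe sets was needed. The series measured gene expression on microarrays in 15 samples of sorted bone marrow progenitors from female C57BL/6 mice, 3 weeks after conditional knockout. It asked which genes were deregulated in pre-leukaemic cells that carry mutant Cebpa, the gene of the myeloid factor C/EBPα.

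There were 5 groups of 3 arrays. The granulocyte-macrophage progenitors (GMPs) were cebpa fl/p30; Mx1Cre, cebpa fl/BRM2; Mx1Cre and, as their control, cebpa fl/+; Mx1Cre. The more immature pre-granulocyte-macrophage progenitors (preGMs) were cebpa fl/p30; Mx1Cre and, as their control, cebpa +/+:Mx1Ce in the spelling of the labels. The groups are called GMP fl/p30, GMP fl/BRM2, GMP fl/+, preGM fl/p30 and preGM +/+. The p30 allele makes only the short form of C/EBPα, and the BRM2 allele has a mutated basic region. In all groups Cre is driven by the interferon-inducible Mx1 promoter, which is active well beyond myeloid progenitors. Deletion of the floxed allele leaves mutant cells with the mutant allele alone and GMP fl/+ cells with 1 normal allele, while preGM +/+ cells keep 2, so the controls of the stages differ in genotype. Each of the 3 fl/p30 animals gave both a GMP and a preGM sample, and the other groups came from separate animals. Both stages were sorted as lineage-negative, Sca1- and cKit+ cells that lacked CD150 and CD41. GMPs were FcgRII+, and preGMs were FcgRII- and Endoglin-. Megakaryocyte and erythroid progenitors mostly carry CD150, CD41 or Endoglin, so such gates leave most of them out.

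These factors form one regulatory circuit. GATA proteins bind DNA through zinc fingers, Gata2 in stem, progenitor and mast cells and Gata1 in erythroid cells, megakaryocytes, mast cells and eosinophils, where it takes over sites from Gata2. Zfpm1, also called FOG1, is a zinc finger partner of both. Tal1, a helix-loop-helix protein, joins GATA factors in a complex that is bridged by the LIM-domain protein Lmo2, which does not itself bind DNA. Klf1 switches on globin and red cell membrane genes, Gfi1b is a repressor of the same lineages, and Nfe2 is the subunit of NF-E2 that gives it tissue specificity in platelet formation. In myeloid progenitors, C/EBPα and the GATA factors are known to favour opposing fates.

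RefSeq promoter windows were matched for 6 of the 8 genes by symbol, giving 8 windows because Gata2 and Tal1 each have a pair of start sites. The first 250 bases of each window, which end at the start site, were searched on both strands (build GRCm38.p6). The GATA motif was taken as AGATAA or TGATAA. It was found in 3 of the 8 windows, against 16.6% of all 32851 windows. Of the windows without it, that of Gata1 is shown because the gene rose with both mutant alleles in GMPs, and the 3 windows with it are shown because Gfi1b, Klf1 and Tal1 are known targets of GATA factors. They lie at chrX:7967911-7968160 on the minus strand (Gata1), chr2:28621983-28622232 on the minus strand (Gfi1b), chr8:84901732-84901981 on the plus strand (Klf1) and chr4:115056176-115056425 on the plus strand (Tal1, the upstream start). Capitals mark the GATA motif on either strand, and each sequence runs 5′ to 3′ towards its start site. The Gata1 window lies inside the span of that gene (chrX:7959260-7976663), before an internal start site. It is thus not the sequence upstream of the whole gene.
Gata1: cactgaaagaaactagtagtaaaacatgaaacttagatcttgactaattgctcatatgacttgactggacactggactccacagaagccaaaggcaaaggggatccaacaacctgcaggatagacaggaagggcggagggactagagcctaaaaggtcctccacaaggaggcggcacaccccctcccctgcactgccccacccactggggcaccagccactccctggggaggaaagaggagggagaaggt
Gfi1b: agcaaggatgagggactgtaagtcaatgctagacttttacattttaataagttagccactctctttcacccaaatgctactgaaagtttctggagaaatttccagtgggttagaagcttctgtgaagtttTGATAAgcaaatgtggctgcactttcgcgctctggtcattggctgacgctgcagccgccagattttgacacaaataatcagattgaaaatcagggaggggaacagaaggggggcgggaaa
Klf1: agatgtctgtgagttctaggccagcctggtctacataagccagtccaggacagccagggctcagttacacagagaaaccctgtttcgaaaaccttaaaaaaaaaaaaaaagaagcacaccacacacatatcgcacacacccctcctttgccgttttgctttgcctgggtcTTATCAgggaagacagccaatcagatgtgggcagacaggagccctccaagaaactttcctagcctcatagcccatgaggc
Tal1: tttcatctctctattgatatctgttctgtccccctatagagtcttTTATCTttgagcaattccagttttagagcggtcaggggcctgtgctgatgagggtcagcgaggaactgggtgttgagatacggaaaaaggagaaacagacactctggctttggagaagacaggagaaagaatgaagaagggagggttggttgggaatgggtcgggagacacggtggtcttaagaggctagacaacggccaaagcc
The motif began 120 bases before the start of Gfi1b, 80 before that of Klf1 and 205 before that of Tal1. In the Tal1 window it was followed directly by the 1 match to TTGCNNAA, the letters taken for C/EBP, which 9.56% of all windows hold. CCNCNCCC, the CACCC letters bound by Klf1 and its relatives, was in 6 of the 8 windows, against 45.9% of all, and matches in runs of G or C overlap one another. The E-box CAGNTG was in 1 of 8 (44.8% of all), AAATCA, taken for the GFI factors, in 1 of 8 (12.4%) and TGAGTCA, taken for NF-E2, in 0 of 8 (4.46%). These matches describe letters in short windows and say nothing on binding.

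All levels are log2 expression values, differences are log2 differences with their standard error (SE), and adjusted p-values are those of limma with Benjamini-Hochberg adjustment over all 19937 genes. A gene is called at an adjusted p under 0.05. The array medians lay between 6.03 and 6.23 and serve as a mark of low levels. The labels give each array its own animal number apart from the paired fl/p30 samples, so p-values rest on the spread between animals. The spread within groups was uneven, with a root mean square SD of 0.319 in GMP fl/+ against 0.165 in preGM +/+. GMP fl/+ replicate 2 resembled no other array as closely as the rest did (highest r 0.957, against 0.970 to 0.988 elsewhere). In preGM +/+ replicate 3 the B lymphoid list stood 1.65 above its mean over the arrays, against -0.21 and -0.07 in replicates 1 and 2.

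In mutant GMPs, Gata2, Gata1, Nfe2 and Gfi1b rose with both alleles, Zfpm1 rose and Lmo2 fell with p30, and the other differences did not pass. In GMP fl/p30 against GMP fl/+, 5 of the 8 rose (Gata2, Gata1, Nfe2, Zfpm1 and Gfi1b) and Lmo2 fell, with Tal1 and Klf1 not passing; over all genes 4.69% were called higher and 1.37% lower. In GMP fl/BRM2 against GMP fl/+, 4 of the 8 rose (Gata2, Gata1, Nfe2 and Gfi1b) and 0 fell, against 1.89% and 0.642% of all genes. Without GMP fl/p30 replicate 2, 2 factors (Gata2 and Gata1) rose and Lmo2 fell with p30. With BRM2, Gata2 and Gata1 alone were called without GMP fl/BRM2 replicate 2 or 3 or GMP fl/+ replicate 3. Fits of the 6 arrays alone called 2 factors for p30 and 1 for BRM2. The arrays of GMP fl/p30 and GMP fl/+ did not overlap for 6 factors that were higher and for Lmo2, which was lower (9.16% and 8.27% of all genes), and the same held for the same 7 factors in GMP fl/BRM2 (6.74% and 8.51% of all genes). The median difference of the 8 factors was 0.91 for p30 and 0.80 for BRM2, where the medians over all genes were -0.04 and -0.02. Both comparisons use the same 3 GMP fl/+ arrays, so they are not independent of each other. In bulk samples, fewer cells of a type and less RNA per cell cannot be told apart.

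**Figure D1:**
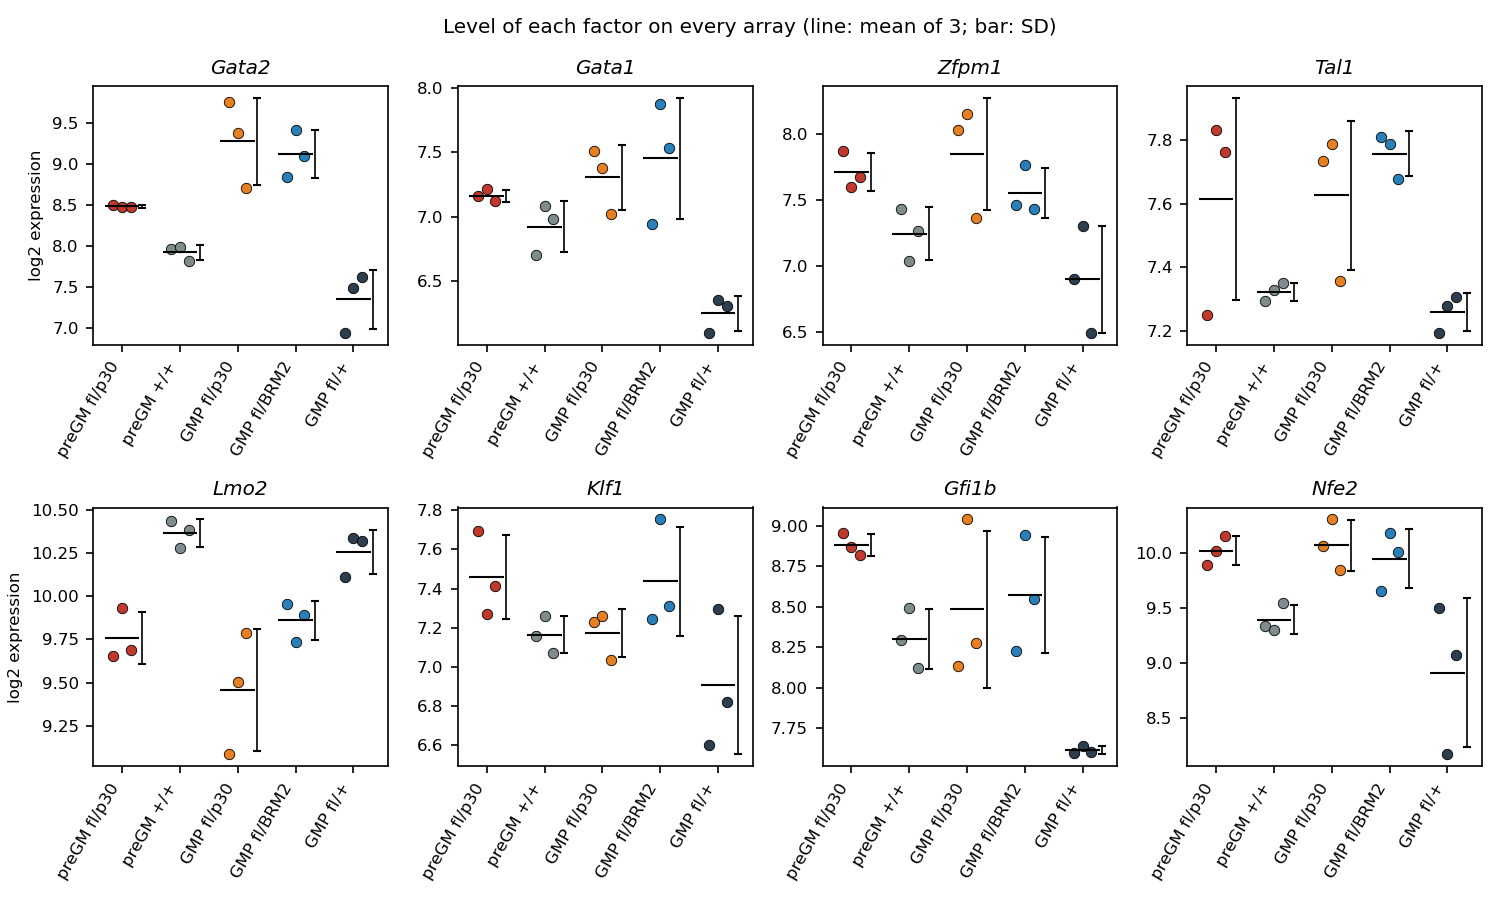
Log2 expression (vertical axes, a separate range per gene) of the 8 factors in each of the 15 arrays, by group; points are arrays, horizontal lines are means of 3 and bars are SDs. GMP fl/+ has the lowest mean for 7 factors and, for Lmo2, the mean next to the highest.

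Gata2 (chr6:88193891-88207032), the GATA factor of stem, progenitor and mast cells, changed most. Its level was 9.76, 9.38 and 8.70 in GMP fl/p30 and 8.84, 9.42 and 9.10 in GMP fl/BRM2, against 6.94, 7.49 and 7.62 in GMP fl/+. Every mutant GMP array lay more than 1 log2 unit above the highest control. Gata2 rose 3.81-fold with p30 (1.93 ± 0.23, n = 3 arrays per group, adjusted p = 0.000232 by limma) and 3.42-fold with BRM2 (1.77 ± 0.23, adjusted p = 0.000899). It was 8.50, 8.47 and 8.47 in preGM fl/p30, against 7.96, 7.99 and 7.81 in preGM +/+, a difference of 0.56 ± 0.23 that did not pass (adjusted p = 0.294 by limma) although the arrays did not overlap. Its groups fell in the order GMP fl/p30, GMP fl/BRM2, preGM fl/p30, preGM +/+ and GMP fl/+, and only the mutant GMP groups at the top overlapped as neighbours.

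Gata1 (chrX:7959260-7976663), the GATA factor of red cells and megakaryocytes, was at 7.51, 7.38 and 7.02 in GMP fl/p30 and at 6.95, 7.88 and 7.53 in GMP fl/BRM2, against 6.10, 6.35 and 6.31 in GMP fl/+. All 6 mutant arrays were above all 3 control arrays, which lay at about the array medians, so the differences may understate the change. Gata1 rose 2.08-fold with p30 (1.05 ± 0.20, adjusted p = 0.00529 by limma) and 2.30-fold with BRM2 (1.20 ± 0.20, adjusted p = 0.0046). The BRM2 call was lost in a fit of the 6 arrays alone (adjusted p = 0.0914). In preGM fl/p30 its level was 7.16, 7.21 and 7.12, against 6.70, 7.08 and 6.98 in preGM +/+, and that difference of 0.24 ± 0.20 did not pass (adjusted p = 0.621 by limma).

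Zfpm1 (chr8:122281856-122337862), the GATA partner FOG1, stood at 8.03, 8.15 and 7.36 in GMP fl/p30 and 7.46, 7.77 and 7.43 in GMP fl/BRM2, against 6.90, 7.30 and 6.49 in GMP fl/+. The control arrays were widely spread, and the third p30 array lay only just above the highest of them. Zfpm1 rose 1.93-fold with p30 (0.95 ± 0.22, adjusted p = 0.0191 by limma), while the BRM2 difference of 0.65 ± 0.22 did not pass (adjusted p = 0.151). That call ended on removal of GMP fl/p30 replicate 1, GMP fl/p30 replicate 2 or GMP fl/+ replicate 3 (highest adjusted p 0.0893 by limma) and in a fit of the 6 arrays alone (adjusted p = 0.218). In preGMs its level was 7.87, 7.60 and 7.67 with fl/p30, against 7.43, 7.04 and 7.27 with +/+ (0.47 ± 0.22, adjusted p = 0.354 by limma), again without overlap.

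Tal1 (chr4:115056426-115071755), the helix-loop-helix member, passed in no comparison. It was at 7.73, 7.79 and 7.36 in GMP fl/p30 and 7.81, 7.79 and 7.68 in GMP fl/BRM2, against 7.19, 7.28 and 7.31 in GMP fl/+. The mutant arrays were all above the control arrays, the third p30 array only just, yet neither 0.37 ± 0.15 for p30 (adjusted p = 0.173 by limma) nor 0.50 ± 0.15 for BRM2 (adjusted p = 0.0989) passed. With array weights both were called, at 0.45 for p30 (adjusted p = 0.0197 by limma) and 0.45 for BRM2 (adjusted p = 0.044). Its preGM fl/p30 arrays were split, at 7.25, 7.83 and 7.76, against 7.29, 7.33 and 7.35 in preGM +/+, and the first of them lay below every control. All neighbouring groups in the order of Tal1 levels overlapped.

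Lmo2 (chr2:103957903-103981878), the bridge of the Tal1 and GATA complex, went the other way. Its level was 9.09, 9.50 and 9.78 in GMP fl/p30 and 9.96, 9.74 and 9.89 in GMP fl/BRM2, against 10.11, 10.34 and 10.32 in GMP fl/+. Both mutant groups lay wholly below the control. Lmo2 fell 1.74-fold with p30 (-0.80 ± 0.15, adjusted p = 0.00629 by limma), and the BRM2 difference of -0.39 ± 0.15 did not pass (adjusted p = 0.227). The p30 call held without any 1 of the 6 arrays, but was lost in the fit of those arrays alone (adjusted p = 0.147 by limma). In preGM fl/p30 Lmo2 was at 9.65, 9.93 and 9.69, against 10.43, 10.28 and 10.38 in preGM +/+, a difference of -0.61 ± 0.15 that did not pass (adjusted p = 0.0659 by limma) but was called with the fl/p30 animals as a block (adjusted p = 0.0336).

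Klf1 (chr8:84901982-84905291), the activator of globin genes, passed in no comparison. It was at 7.23, 7.26 and 7.03 in GMP fl/p30 and 7.24, 7.75 and 7.31 in GMP fl/BRM2, against 6.60, 7.29 and 6.82 in GMP fl/+. The second control array was above 4 of the 6 mutant arrays, so the groups overlapped. The differences were 0.27 ± 0.18 for p30 (adjusted p = 0.448 by limma) and 0.53 ± 0.18 for BRM2 (adjusted p = 0.154); without GMP fl/+ replicate 2, BRM2 was called at 0.72 (adjusted p = 0.0492). PreGM fl/p30 had 7.69, 7.27 and 7.41, against 7.16, 7.26 and 7.07 in preGM +/+ (0.29 ± 0.18, adjusted p = 0.488 by limma), with its lowest array only just above the controls.

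Gfi1b (chr2:28609450-28621982), the repressor of the group, was at 8.14, 9.04 and 8.28 in GMP fl/p30 and 8.23, 8.94 and 8.54 in GMP fl/BRM2, against 7.60, 7.64 and 7.60 in GMP fl/+. The control arrays were nearly equal and all mutant arrays were above them, with 1 high array, replicate 2, in each mutant group. Gfi1b rose 1.83-fold with p30 (0.87 ± 0.21, adjusted p = 0.0249 by limma) and 1.94-fold with BRM2 (0.96 ± 0.21, adjusted p = 0.0266). Without GMP fl/p30 replicate 2 the p30 difference was 0.59 and not called. Both calls also ended on removal of GMP fl/+ replicate 2 or of GMP fl/+ replicate 3, the BRM2 call on removal of GMP fl/BRM2 replicate 2 or 3 (highest adjusted p 0.0883 for p30 and 0.17 for BRM2 by limma), and both in fits of the 6 arrays alone (adjusted p = 0.188 and 0.0871). In preGM fl/p30 it was at 8.95, 8.87 and 8.82, the highest group mean of this gene, against 8.29, 8.49 and 8.12 in preGM +/+ (0.58 ± 0.21, adjusted p = 0.225 by limma).

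Nfe2 (chr15:103248212-103258403), the platelet factor subunit, was at 10.07, 10.31 and 9.85 in GMP fl/p30 and 9.66, 10.18 and 10.01 in GMP fl/BRM2, against 9.50, 8.17 and 9.07 in GMP fl/+. The control arrays were widely spread, with replicate 2 far below the others. Nfe2 rose 2.23-fold with p30 (1.16 ± 0.25, adjusted p = 0.0149 by limma) and 2.05-fold with BRM2 (1.04 ± 0.25, adjusted p = 0.0456). Without GMP fl/+ replicate 2 the differences were 0.79 for p30, still called, and 0.66 for BRM2, not called (adjusted p = 0.103 by limma). The p30 call ended on removal of GMP fl/p30 replicate 1 or 2 (highest adjusted p 0.0698 by limma). The BRM2 call ended on removal of GMP fl/BRM2 replicate 2 or 3 or of GMP fl/+ replicate 3 (highest adjusted p 0.24), with the replicate block (0.0731), with the block of fl/p30 animals alone (0.0653) and with re-centred medians (0.0694). Fits of the 6 arrays alone ended both (adjusted p = 0.207 and 0.298). PreGM fl/p30 had 9.89, 10.02 and 10.16, against 9.34, 9.30 and 9.55 in preGM +/+ (0.63 ± 0.25, adjusted p = 0.284 by limma).

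**Figure D2:**
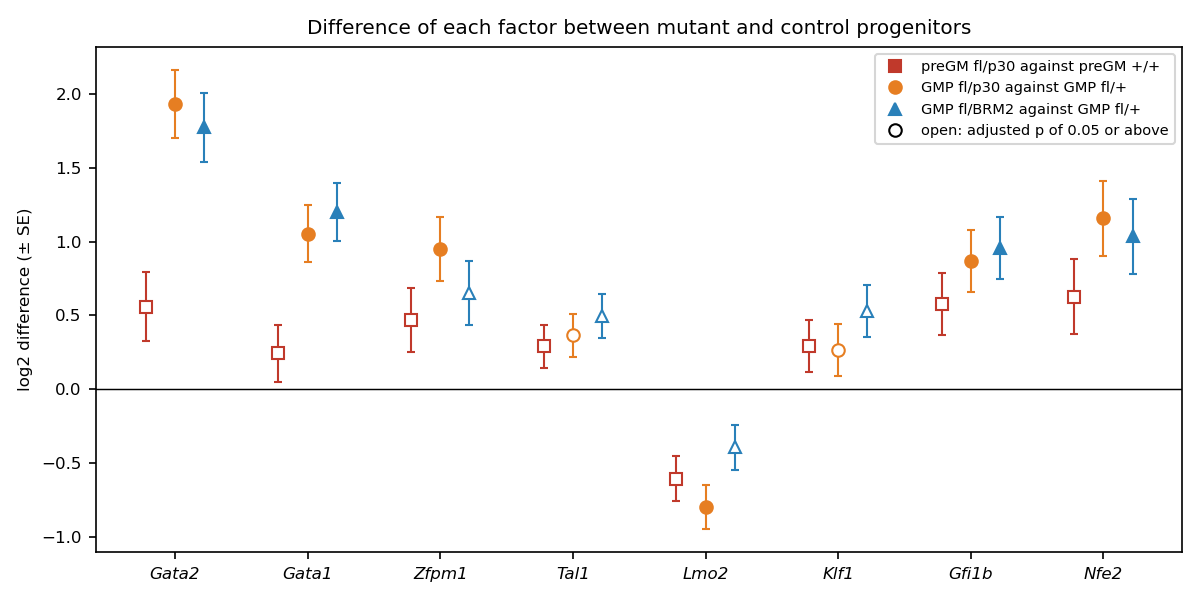
Log2 difference ± SE (vertical axis) of each factor between mutant and control progenitors for the 3 comparisons of the legend; filled symbols passed an adjusted p of 0.05. Gata2 is highest at 1.93 and 1.77 in GMPs, Lmo2 is below 0 in all 3 comparisons, and all preGM symbols are open.

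In preGMs the factors leaned the same way, but 0 of the 8 passed in preGM fl/p30 against preGM +/+ (limma), where 1.68% of all genes were called. At an unadjusted p under 0.05 stood 5 of the 8, against 14% of all genes. No array of one group fell among those of the other for 6 factors, all higher, and for Lmo2, which was lower, against 12.4% and 12.8% of all genes. Without preGM +/+ replicate 3, the array with B lymphoid transcripts, 0 of 8 passed as well. In a fit of these 6 arrays alone, whose spread within groups is smaller, Gata2, Gfi1b and Nfe2 were called higher and Lmo2 lower (adjusted p from 0.0128 to 0.0242 by limma). The p30 difference in GMPs minus that in preGMs, called the stage difference, was also tested. The GMP control was fl/+ and the preGM control +/+, so stage and control genotype cannot be told apart in it. The stage difference was 1.37 ± 0.33 for Gata2 (95% interval 0.67 to 2.07, adjusted p = 0.128 by limma) and 0.81 ± 0.28 for Gata1 (0.22 to 1.41, adjusted p = 0.258), and 0 of 8 passed, with 0.00502% of all genes called. At an unadjusted p under 0.05 stood 2 of the 8 and 13.1% of all genes. Gata2 was called there without GMP fl/+ replicate 1 (1.16, adjusted p = 0.0398) and without GMP fl/p30 replicate 3 (1.66, adjusted p = 0.021).

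The alleles themselves were compared as GMP fl/p30 against GMP fl/BRM2. None of the 8 factors passed (limma), with 0.00502% of all genes called, and 1 of the 8, Lmo2, had an unadjusted p under 0.05, against 3.45% of all genes. Lmo2 differed by -0.40 ± 0.15 (95% interval -0.73 to -0.08). The intervals were -0.34 to 0.65 for Gata2, -0.57 to 0.27 for Gata1 and -0.17 to 0.76 for Zfpm1. These intervals leave the size of any difference between the alleles unsettled within their bounds.

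The stages were also compared, with mutant and control progenitors kept apart. In GMP fl/+ against preGM +/+, Gata1 fell by 0.67 ± 0.20 on the log2 scale (adjusted p = 0.0448 by limma), 1 of 8 factors, against 6.02% of all genes called lower. That call was lost whichever of the 6 arrays was left out (adjusted p up to 0.139). Gfi1b was lower by a difference of -0.69 ± 0.21 at adjusted p = 0.0509 by limma, Gata2 was at -0.57 ± 0.23 (0.114) and all 8 differences were below 0. Without GMP fl/+ replicate 1, Nfe2 was called at -0.77 (adjusted p = 0.0271). The genotype of the controls cannot be told apart from the stage here. In GMP fl/p30 against preGM fl/p30, taken from the same animals, 0 of 8 passed (limma), with 0.642% of all genes called, and 1 of 8 had an unadjusted p under 0.05, against 12.4% of all genes. Gata2 was 0.80 ± 0.23 higher in the GMPs (adjusted p = 0.152 by limma), and was called at 1.08 without GMP fl/p30 replicate 3 (0.028). With the animals as a block, 0 of 8 passed as well.

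The arrays of a mutant GMP group were not equally high in these factors. GMP fl/p30 replicate 3 had the lowest Gata2, Gata1, Zfpm1, Tal1, Klf1 and Nfe2 of its group and the highest Lmo2. Levels of gene lists are given here as the mean deviation of their genes from the mean over 15 arrays. The 9 late neutrophil genes stood at -1.15, -0.79 and 0.61 in GMP fl/p30, against 1.68, 1.12 and 0.81 in GMP fl/+, so the same replicate 3 was the high array. Summed over the list, the log2 levels ran from 52.3 to 68.2 in GMP fl/p30 and from 55.8 to 67.5 in GMP fl/BRM2, against 70.0 to 77.8 in GMP fl/+, and 6 of the 9 genes fell with p30 and 2 with BRM2, against 1.37% and 0.642% of all genes. Leaving out single arrays gave 1 to 5 lower for p30, with the fewest without GMP fl/p30 replicate 1 or 2, and 1 to 3 for BRM2, with the fewest without GMP fl/BRM2 replicate 2 or 3 or GMP fl/+ replicate 2. Fits of the 6 arrays alone gave 0 for p30 and 1 for BRM2. In preGMs 3 of the 9 fell with p30, where 1.68% of all genes were called in either direction. That count was 0 without preGM fl/p30 replicate 3, 1 without preGM fl/p30 replicate 1 or 2 or preGM +/+ replicate 2, and 6 in the fit of the 6 arrays alone. The list had sums of 51.3 to 53.5 in preGM fl/p30, against 64.2 to 74.8 in preGM +/+. GMP fl/BRM2 replicate 1 likewise had the lowest Gata2, Gata1, Klf1, Gfi1b and Nfe2 of its group and the highest late neutrophil level (0.53, against -0.77 and -0.28). The part of neutrophil-committed cells in the differences was not tested.

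**Figure D3:**
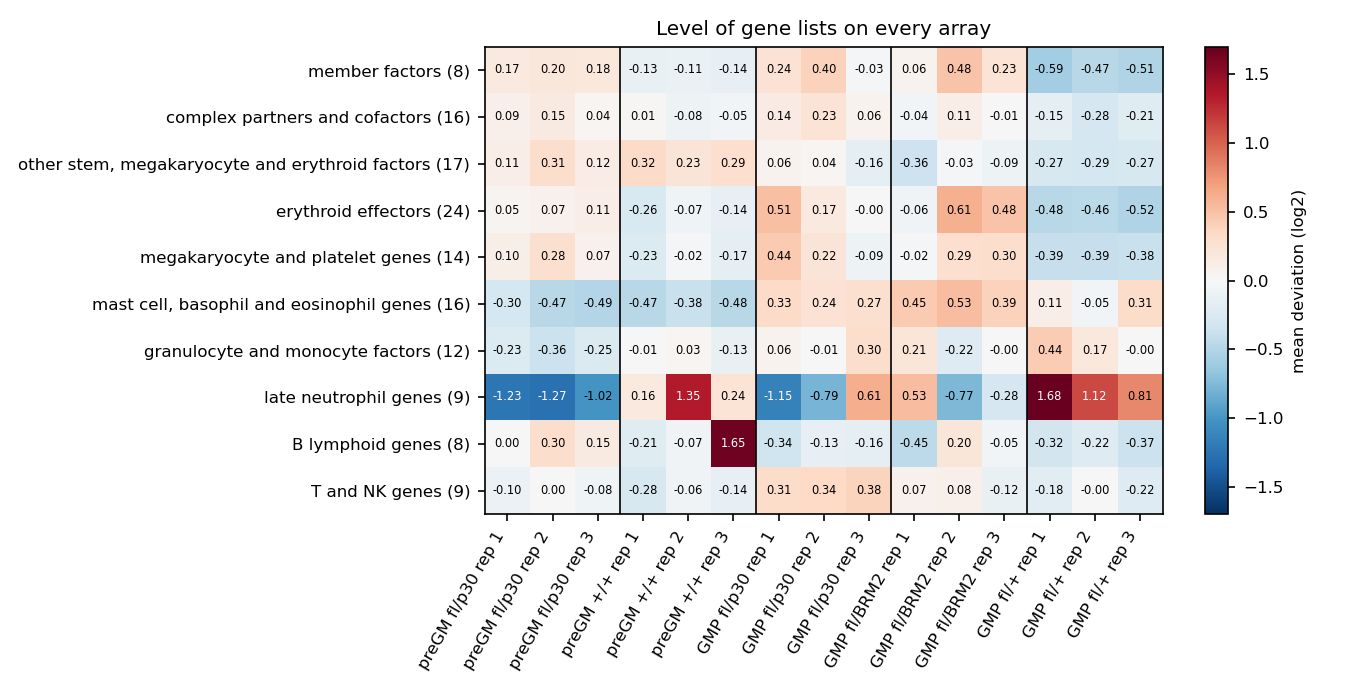
Mean deviation (log2, colour and printed value) of each gene list from its genes' means over 15 arrays, with lists as rows (number of genes measured in brackets) and arrays as columns. The 8 factors lie between -0.59 and -0.47 in GMP fl/+, and the late neutrophil list is at 0.61 in GMP fl/p30 replicate 3 but at -1.15 and -0.79 in replicates 1 and 2.

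Some of the genes that these factors are known to drive were higher in mutant GMPs, and most did not pass. Of 24 measured erythroid effectors, 7 rose and 0 fell in GMP fl/p30, with a median of 0.56, where 4.69% of all genes rose and the all-gene median was -0.04. In GMP fl/BRM2, 8 rose and 0 fell, with a median of 0.66, where 1.89% of all genes rose and the median was -0.02. Car1, a carbonic anhydrase of early erythroid cells, was at 11.37, 10.84 and 10.16 in GMP fl/p30 and 9.66, 11.67 and 11.15 in GMP fl/BRM2, against 8.40, 6.75 and 7.44 in GMP fl/+. It rose by 3.26 ± 0.49 with p30 and 3.30 ± 0.49 with BRM2 (adjusted p = 0.0013 and 0.00246 by limma). Car2 rose by 2.16 and 2.23, Hemgn, a nuclear protein of blood progenitors, by 1.88 and 1.63, and Icam4, which carries a blood group, by 1.28 and 1.47. Slc4a1, the anion exchanger of the red cell membrane, rose by 0.88 and 1.02. Kel, another blood group gene, rose by 1.12 and 1.58. Epor, the erythropoietin receptor, stayed near the array medians in all groups (6.06 to 6.70). In GMP fl/+ against preGM +/+, 3 of the 24 were called lower and 0 higher, against 6.02% of all genes called lower. They were Car1 (-2.78 ± 0.49), Car2 (-2.03 ± 0.37) and Icam4 (-1.13 ± 0.19). The mutant GMP differences of these genes are thus against a control that lay below preGM +/+. Stage and control genotype cannot be told apart in that step. Leaving out single arrays gave 5 to 8 genes higher for p30 and, with the fewest without GMP fl/BRM2 replicate 2, 4 to 10 for BRM2. Fits of the 6 arrays alone gave 3 (Car1, Hemgn and Icam4) and 1 (Icam4). The BRM2 call of Hemgn ended on removal of GMP fl/BRM2 replicate 2, and that of Kel on removal of replicate 2 or 3. The p30 call of Kel ended on removal of GMP fl/p30 replicate 1 or 2 or GMP fl/+ replicate 1 or 2, and with the replicate block (adjusted p = 0.0573).

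Of 14 measured megakaryocyte and platelet genes, 4 rose and 0 fell with p30 (median 0.52), and 4 rose and 0 fell with BRM2 (median 0.40), against 4.69% and 1.89% of all genes called higher. Plek, a platelet kinase substrate that myeloid cells also express, rose by 2.15 ± 0.22 with p30 and 2.10 ± 0.22 with BRM2, and the tetraspanin gene Cd9 by 1.47 and 1.21. In GMP fl/+ against preGM +/+, Plek was called lower (-2.06 ± 0.22), 1 of the 14, and 0 were called higher, against 6.02% of all genes called lower. Itgb3, the platelet integrin beta chain, rose by 0.68 and 0.82. Itga2b encodes CD41, which the sort selected against. It rose by 1.04 ± 0.25 with p30 (adjusted p = 0.0244 by limma) and was at 0.99 with BRM2 (adjusted p = 0.053). Gp5, a platelet glycoprotein, rose by 1.03 with BRM2, and Pf4, a platelet chemokine, did not pass at 7.42, 5.65 and 5.68 in GMP fl/p30, against 5.59, 5.25 and 5.13 in GMP fl/+. Leaving out single arrays gave 2 to 4 genes higher for p30, with the fewest without GMP fl/p30 replicate 1 or 2, where Itga2b and Itgb3 lost the call. For BRM2 it gave 1 to 5, with the fewest without GMP fl/BRM2 replicate 2, and Cd9 and Gp5 also lost the call on removal of GMP fl/BRM2 replicate 3, GMP fl/+ replicate 2 or GMP fl/+ replicate 3. Itgb3 with p30 further needed GMP fl/+ replicate 2. Plek alone was called in fits of the 6 arrays. Of the other gate genes, Slamf1 (CD150) lay below the array medians on all 15 arrays and Eng (Endoglin) differed by 0.16 and 0.12 in mutant GMPs, neither passing. Kit, Fcgr3 and Fcgr2b did not pass in mutant GMPs either, and Ly6a was not measured. In preGM fl/p30, 0 of the 24 erythroid and 0 of the 14 megakaryocyte genes passed (limma), where 1.68% of all genes were called. The medians were 0.13 and 0.28, where the all-gene median was 0.03. The arrays did not overlap for 11 erythroid genes that were higher and 2 that were lower. The same held for 6 megakaryocyte genes, all higher, against 12.4% of all genes higher and 12.8% lower. The nearest to a call was Hemgn at 1.19 ± 0.29 (adjusted p = 0.053 by limma).

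Mast cell, basophil and eosinophil genes, which Gata2 and Gata1 also control, were split. Of 16 measured, 5 rose and 4 fell with p30, where 4.69% of all genes rose and 1.37% fell. With BRM2, 5 rose and 2 fell, where 1.89% rose and 0.642% fell. The mast cell carboxypeptidase Cpa3 was at 11.91, 11.49 and 11.20 in GMP fl/p30 and 11.14, 11.62 and 11.58 in GMP fl/BRM2, against 9.13, 7.35 and 8.85 in GMP fl/+, and rose by 3.09 ± 0.34 and 3.00 ± 0.34. In preGM fl/p30 against preGM +/+, Cpa3 also rose, by 2.53 ± 0.34 (adjusted p = 0.00243 by limma). Hdc, the histamine-forming enzyme of basophils and mast cells, fell there by 2.19 ± 0.36 (adjusted p = 0.00755 by limma). Thus 1 of the 16 rose and 1 fell in preGMs, where 1.68% of all genes were called in either direction. The monoamine transporter Slc18a2 rose by 2.34 and 2.40 in the mutant GMPs, and the chymase Cma1 by 1.52 and 1.57. In mutant GMPs Hdc fell by 2.21 with p30 and 1.90 with BRM2, and the eosinophil granule gene Prg2 fell by 3.45 with p30. Removal of GMP fl/p30 replicate 1 or 2 or of GMP fl/+ replicate 2 or 3 ended that call, and removal of GMP fl/BRM2 replicate 2 that of Hdc with BRM2. In fits of the 6 arrays alone 2 rose and 0 fell with p30, and 3 rose and 1 fell with BRM2. In GMP fl/+ against preGM +/+, Hdc was higher by 1.78 ± 0.36 and Prg2 by 3.52 ± 0.81, the latter called in 4 of 6 removals. Their falls are thus against a control that lay above preGM +/+. In that step 5 of the 16 were called higher and 1 lower, where 2036 of 19937 genes were called in either direction.

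Of 16 partners and cofactors of the 8 factors, 4 rose and 1 fell with p30 (median 0.34), and 1 rose and 0 fell with BRM2 (median 0.25), against 4.69% and 1.37% of all genes for p30 and 1.89% and 0.642% for BRM2. Without GMP fl/+ replicate 1, 7 rose and 2 fell with p30, and 4 rose and 2 fell with BRM2. Other removals gave 3 to 6 higher for p30, with the most without GMP fl/p30 replicate 3, and 1 for BRM2. Cbfa2t3, the corepressor ETO2 of the Tal1 complex, was 1.08 ± 0.17 higher with p30 (adjusted p = 0.0015 by limma). Ssbp2, which stabilises the Ldb1 part of that complex, rose by 1.08 ± 0.21 with p30 and 1.33 ± 0.21 with BRM2, and fell by 1.51 ± 0.21 in GMP fl/+ against preGM +/+. Tcf12, an E protein that pairs with Tal1, rose by 0.93 ± 0.16 with p30. It fell by 0.72 ± 0.16 in GMP fl/+ against preGM +/+, called in 4 of 6 removals of an array. Chd4, a chromatin remodeller, rose by 0.57, but not without GMP fl/p30 replicate 1 or 2 or GMP fl/+ replicate 3. Mafg was the gene that fell with p30, by 0.43 ± 0.12 (adjusted p = 0.0495 by limma), called in 2 of 6 removals of an array. It was 0.76 ± 0.12 higher in GMP fl/+ against preGM +/+. In fits of the 6 arrays alone, Cbfa2t3 alone was called with p30 and 0 genes with BRM2.

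Of 17 other stem, megakaryocyte and erythroid factors, Runx1 (0.94), Ikzf1 (0.80) and Hhex (0.64) rose with p30 and 0 fell, against 4.69% and 1.37% of all genes. With BRM2, Runx1 (0.88) and Hhex (0.49) rose and Mef2c fell by 0.70, against 1.89% and 0.642% of all genes. Of these calls, that of Hhex with p30 alone held whichever array was left out. Hhex fell by 0.75 ± 0.12 in GMP fl/+ against preGM +/+. Runx1 and Ikzf1 with p30 lost their calls without GMP fl/p30 replicate 1 or GMP fl/+ replicate 3, and Runx1 also without GMP fl/p30 replicate 2. With BRM2, Runx1, Hhex and Mef2c lost theirs without GMP fl/BRM2 replicate 2, GMP fl/+ replicate 2 or GMP fl/+ replicate 3, Runx1 and Hhex also without GMP fl/BRM2 replicate 3, and Mef2c without replicate 1. Among 12 measured granulocyte and monocyte factors, 2 rose (Id2 and the altered gene Cebpa itself) and 4 fell with p30, and 1 rose and 2 fell with BRM2, beside the same shares of all genes. Over left-out arrays, 1 to 2 rose and 2 to 4 fell with p30, and 0 to 1 rose and 0 to 3 fell with BRM2. The fewest fell without GMP fl/p30 replicate 1 or 2 or GMP fl/+ replicate 2 for p30, and without GMP fl/BRM2 replicate 2 or GMP fl/+ replicate 2 for BRM2. Id2, an inhibitor of helix-loop-helix proteins, rose by 2.73 and 1.72, and Irf8, a monocyte and dendritic cell factor, fell by 1.72 and 1.44. Cebpd was lower, at -0.99 with p30 and -0.96 with BRM2, each called in 3 of 6 removals of an array. In fits of the 6 arrays alone, 0 of the 17 other factors passed with p30 and Runx1 alone with BRM2, and of the 12, Gfi1 alone with p30 and Irf8 alone with BRM2. The BRM2 calls of Id2 and Irf8 ended on removal of GMP fl/BRM2 replicate 2 or GMP fl/+ replicate 2, and that of Id2 also without replicate 3 of either group. Gfi1, the myeloid relative of Gfi1b, fell by 0.82 ± 0.17 with p30 (adjusted p = 0.00932 by limma), while Gfi1b rose in the same arrays. In GMP fl/+ against preGM +/+, Gfi1 was higher by 0.96 ± 0.17 and Cebpd by 1.16 ± 0.22. Their falls are thus against a control that lay above preGM +/+. In that step 4 of the 12 were called higher and 0 lower, where 2036 of 19937 genes were called in either direction. Cebpa itself differed by 0.69 ± 0.18 with p30 (adjusted p = 0.0367) and by 0.27 ± 0.18 with BRM2 (adjusted p = 0.562), and the p30 call ended on removal of GMP fl/p30 replicate 2 or 3 or GMP fl/+ replicate 2 or 3. Where its probes lie relative to the altered parts is not known here, so this does not check the genotypes. Among marker lists of other cells, 0 of 8 B lymphoid genes passed in either mutant GMP group (limma), and 2 of 9 T and NK genes, Cd3g and Klrd1, rose with p30 at levels below the array medians, each losing the call in 5 of 6 removals of an array.

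Over the 15 arrays the factors varied together, and the correlations below are descriptions across arrays that share 5 groups and 1 normalization. Gata1 and Gata2 had a Pearson r of 0.90, and still 0.74 for deviations from the group means, so they also varied together between arrays of the same group. Gata1 with Gfi1b had 0.80 (0.52 for deviations), and Klf1 with Zfpm1 0.68 (0.63). Lmo2 was opposed to all 7 others, from -0.81 with Gata2 to -0.39 with Klf1. For deviations, Nfe2 ran from -0.44 with Klf1 and -0.36 with Lmo2 to 0.27 with Gfi1b.

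**Figure D4:**
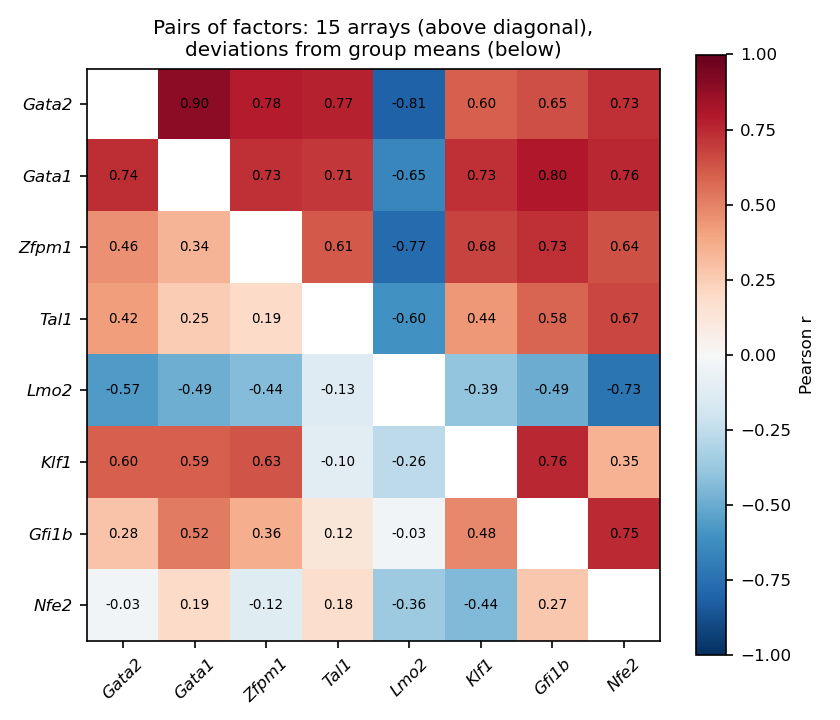
Pearson r (colour and printed value) for each pair of the 8 factors, over 15 arrays above the diagonal and for deviations from the 5 group means below it. Lmo2 is negative with all 7 others above the diagonal, and Gata1 with Gata2 gives 0.90 above and 0.74 below.

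For each factor the genes of most similar pattern were those with the highest Pearson r over the 15 arrays. Gata2 was followed by Slc18a2 (0.97), the kinase gene Dapk1 (0.97) and Slc9a9 (0.97). Gata1 was nearest to the G protein gene Gnb4 (0.96), Rab4a (0.94) and Rab37 (0.93). Gfi1b was nearest to Gp5 (0.96), Herc6 (0.94) and Cabyr (0.93), and Nfe2 to Gatad1 (0.97), Ptpn12 (0.96) and Ddx58 (0.95). Zfpm1 was nearest to Adgra3 (0.92), Thsd1 (0.90) and Basp1 (0.90), and Lmo2 to Pign (0.95), Ythdc2 (0.94) and Nek6 (0.92). The nearest to Klf1 were Abcb4 (0.91), Greb1l (0.88) and Mfsd2b (0.84), and to Tal1 Olfr1509 (0.88), Hyal3 (0.87) and Tec (0.86). Greb1l and Olfr1509 had all group means below the array medians.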

How the data were processed

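The deposited values are log2 expression values that the authors had already normalized; affy and RMA are named, without versions, in the submitters' processing notes, and per the labels' protocols 20 ng of RNA from sorted cells was amplified for each array. Arrays have no read depth, and 3 per group limit the precision. Of 34760 probe sets, 21640 had 1 gene symbol in the platform annotation. They represent 19937 genes, each by its brightest probe set (954 genes had more than 1). Symbols were matched to RefSeq (GRCm38.p6), whose coordinates are those given.

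The 15 arrays were fitted together with limma 3.58.1 in R 4.3.3, with 1 mean for each of 5 groups and eBayes without a trend (degrees of freedom 10 residual, 4.24 prior). In each of 7 comparisons, Benjamini-Hochberg adjustment ran over the whole table. The members and lists were chosen with earlier results of these data known. There were 12 lists, with 146 of 163 entries measured. Named from a list were up to 4 called genes with the largest difference per comparison, or up to 2 where none was called. All measured genes of the sort gates, Cebpa and the 3 genes most correlated with each factor were also named. Epor and Pf4 were added after their values were seen, as were Slc4a1 outside the step in fl/p30 animals and Mafg in GMP fl/p30 against GMP fl/+. The fl/p30 groups are paired by animal number; the deviations of same-animal arrays correlated at 0.334, 0.32 and 0.116. Alternatives were another rule for probe sets, a filter on dim genes, array weights, fits of the compared groups only, re-centred medians, the replicate block and left-out arrays.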

Additional observations from a re-analysis of the deposited data

How the results depend on the processing

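Of the 11 calls of single factors, 5 held whichever array was left out (Gata2 and Gata1 in both mutant GMP comparisons and Lmo2 with p30). None of the 11 changed sign in 143 refits. Leaving out or weighting arrays could not change a sign, because the arrays compared did not overlap for any of the 11. The count of factors called ran from 3 to 6 for GMP fl/p30 against GMP fl/+ over left-out arrays, from 2 to 4 for GMP fl/BRM2, and from 0 to 1 for the step in fl/p30 animals, the step in controls and the stage difference of the p30 effect. In fits of the compared groups only, the counts were 2 (p30 in GMPs), 1 (BRM2), 4 (p30 in preGMs) and 2 (the step in controls). With array weights they were 8 (BRM2), 2 (p30 in preGMs), 1 (the step in fl/p30 animals), 2 (the step in controls) and 2 (the stage difference). The step in controls also gave 2 without dim genes, with re-centred medians, with the replicate block and with the block of fl/p30 animals alone. That last block, an alternative chosen after seeing the data, gave 1 for p30 in preGMs. The replicate block changed no other count of factors by over 1.5 times, and elsewhere replicate numbers only name separate animals.

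Differences near 0 changed sign. With array weights, Gfi1b was at 0.32 and Tal1 at 0.0015 between the alleles, Gfi1b at 0.0603 in the fl/p30 step and Klf1 at 0.13 in the stage difference, where re-centred medians gave 0.0983. Over left-out arrays the ranges between the alleles were -0.40 to 0.0646 (Gata1), -0.0823 to 0.44 (Gata2), -0.37 to 0.10 (Gfi1b), -0.0237 to 0.24 (Nfe2) and -0.21 to 0.0032 (Tal1). In the fl/p30 step they were -0.0676 to 0.16 (Nfe2), -0.17 to 0.15 (Tal1) and -0.0172 to 0.38 (Zfpm1), and in the stage difference -0.18 to 0.17 (Klf1) and -0.11 to 0.21 (Tal1). The cause was not tested.

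The count over all genes moved more. In the order p30 in GMPs, BRM2, p30 in preGMs, fl/p30 step and control step, it was 1209, 505, 334, 128 and 2036. Array weights gave 4063, 2187, 1167, 1948 and 4660, and fits of the compared groups only gave 172, 131, 1070, 29 and 746. Left-out arrays gave 537 to 3078, 134 to 2218, 101 to 223, 26 to 120 and 636 to 4686, the highest of the GMP counts without GMP fl/+ replicate 1. Between the alleles and for the stage difference, where 1 gene was called, array weights gave 283 and 1991, re-centred medians 2 and 29, the block of fl/p30 animals 6 and 25, the replicate block 0 and 0, the compared groups only 0 and 4, and left-out arrays 0 to 12 and 0 to 1482.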

Other observations

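Stem and multipotent progenitor genes did not move as one with the 8 factors. Angpt1, a growth factor gene of stem cells, rose by 3.25 ± 0.26 in GMP fl/p30 and by 2.92 ± 0.26 in GMP fl/BRM2 against GMP fl/+, and fell by 2.37 ± 0.26 in GMP fl/+ against preGM +/+ (adjusted p = 1.16e-05, 7.1e-05 and 0.000183 by limma), the same pattern of directions as Gata1. Of the 7 measured, Angpt1 alone rose and Hlf, a stem cell factor, alone fell in each mutant GMP group. Hlf was at -0.64 with p30 and -0.71 with BRM2, each called in 1 of 6 removals of an array. Of all genes, 4.69% rose and 1.37% fell with p30, and 1.89% and 0.642% with BRM2. Flt3, a receptor of early and lymphoid progenitors, fell by 1.79 ± 0.28 and Hlf by 1.17 ± 0.17 in preGM fl/p30 against preGM +/+, where none of the 8 factors passed. These were the 2 of 7 called there, against 1.68% of all genes in either direction. In GMP fl/+ against preGM +/+ the factor genes Meis1 and Mef2c fell by 2.43 ± 0.38 and 1.44 ± 0.17, more than any of the 8 factors.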
